A study of Homo sapiens with 4 samples.

Results

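The tripartite motif (TRIM) genes encode a large family of proteins built on a RING domain, 1 or more B-box zinc fingers and a coiled coil. The RING domain makes most of them ubiquitin ligases, which attach ubiquitin to other proteins, and the region after the coiled coil sets what each one binds. Several TRIM proteins act in the innate defence against viruses, as ligases of RNA-sensing pathways or as proteins that bind viral components, and part of the family is switched on by interferon. Members were taken by symbol, as TRIM followed by a number and at most 1 letter, with readthrough symbols left out. The rule found 72 of the 26255 genes listed in each library. Family members that carry other symbols, such as PML, are described apart from them.

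The genes were measured by RNA sequencing in MRC5, a human cell line established from fibroblasts of fetal lung and labelled as normal and wild type, 48 h into the experiment per the sample titles. Of the 4 libraries, 2 are labelled as having no treatment (control) and 2 as treated with miRs, meaning microRNAs, which the labels do not name. The series title calls the comparison group NC-miR, and the labels do not settle whether a control microRNA was given to the control cells. No label says that the replicates were separate cultures, so the spread behind each p-value is that of the libraries and may be technical, and all 4 libraries come from 1 cell line.

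Levels are in FPKM, which scales the fragments of a gene by its transcript length and by the library, so that genes of different length can be compared. Between 11622 and 11781 genes per library reached 1 FPKM, and the number of reads behind them is unknown. Of 8 fibroblast markers COL1A1, COL1A2 and VIM were between 1239.97 and 4742 FPKM in every library. The 8 had a median log2 difference of −0.68 with none past the threshold in limma. Of these, 4 (DCN, LUM, THY1 and VIM) lay lower in miRs without overlap, beside 30.0% of all tested genes. Their miRs means were 0.352, 0.401, 0.489 and 0.706 times the control mean. The summed level of all 8 was 9899 and 10015 FPKM in control, 6661 FPKM in miRs replicate 1 and 11489 FPKM in miRs replicate 2. The summed level of 5 blood markers was between 0.0619 and 0.209 FPKM, with CD3E and ITGAM listed at 0 throughout. Of 5 endothelial markers 4 were under 0.1 FPKM in every library and the receptor TEK was between 5.51 and 13.7 FPKM. The 7 epithelial markers summed to 28.9 and 31.8 FPKM in the controls, compared with 186 and 264 FPKM in miRs. The keratins KRT8, KRT18 and KRT19 carried this sum. Of all tested genes 29.5% lay higher in miRs without overlap and 0.101% passed the threshold as higher. All 4 tested epithelial markers lay higher in miRs without overlap, and 2 passed the threshold in limma (KRT18 and KRT19, adjusted p = 0.0354 for each). The fourth, CLDN7, was at 0.596 and 0.974 against 3.99 and 3.19 FPKM (a log2 difference of 1.37, adjusted p = 0.0754). EPCAM, too low to be tested, was at 0 and 0.228 against 1.07 and 1.61 FPKM, also without overlap. The epithelial cadherin CDH1 was listed at 0 in 3 libraries and at 0.0356 FPKM in control replicate 1, and ESRP1 at 0 throughout. The part of these cells or genes in the TRIM values was not tested, and in bulk RNA fewer cells of a type and less RNA per cell cannot be told apart.

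To describe the members outside their levels, their start sites were searched for GAAANNGAAA, a core pattern of the interferon-stimulated response element. The search covered both strands of the 300 bases around each start site in the RefSeq table (GRCh38.p14, 250 before and 50 after the start). The table held 56 of the 72 members, some with more than 1 start site. A match was present in 10 members (17.9%), against 1195 of all 27305 genes in the table (4.38%). Of the 9 members on a list of 10 interferon-induced TRIM genes that have an entry, 6 held a match, as did 4 of the 47 other members. TRIM22, also on the list, has no entry. The list was assembled from known interferon-induced genes with results of these data in view, so these counts are no independent evidence. Each of the 6 listed members with a match is printed as 30 bases on the strand of the gene, 5′ to 3′, with the matches in capitals. They lie on GRCh38.p14 at chr9:98119229-98119258 (TRIM14, minus strand), chr11:4393663-4393692 (TRIM21, minus), chr6:30213578-30213607 (TRIM26, minus), chr11:5685082-5685111 (TRIM5, minus), chr11:5624901-5624930 (TRIM34, plus) and chr15:44736456-44736485 (TRIM69, plus).
TRIM14: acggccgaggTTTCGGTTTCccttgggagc
TRIM21: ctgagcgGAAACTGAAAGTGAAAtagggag
TRIM26: cgcctgaTTTCAGTTTCCATTTCgctgccc
TRIM5: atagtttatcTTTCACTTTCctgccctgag
TRIM34: gccccaaaaaTTTCACTTTCatttctcagg
TRIM69: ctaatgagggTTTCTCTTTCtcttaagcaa

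TRIM21 and TRIM26 each hold 2 matches that overlap, so that 3 GAAA blocks follow each other on 1 strand. Read as GAAANNGAAA, the matches of TRIM5 and TRIM34 and 1 of the 2 in TRIM21 are the same 10 letters, GAAAGTGAAA, which stand in 68 of the genes in the table (0.249%). TRIM21 is the only one of the 6 whose matches begin downstream of the start site, at bases 18 and 24, and those of TRIM26 begin farthest upstream, at −194 and −188. The 4 other members with a match were TRIM2, TRIM16, TRIM44 and TRIM64C. A match is a description of the letters and not a binding site. The 3 listed members with an entry and no match were TRIM25, TRIM38 and TRIM56. The 250 bases before the start site of TRIM25, the member with the clearest change, are printed because they hold no match to the pattern (chr17:56914050-56914299, minus strand, GRCh38.p14, all in lower case).
TRIM25: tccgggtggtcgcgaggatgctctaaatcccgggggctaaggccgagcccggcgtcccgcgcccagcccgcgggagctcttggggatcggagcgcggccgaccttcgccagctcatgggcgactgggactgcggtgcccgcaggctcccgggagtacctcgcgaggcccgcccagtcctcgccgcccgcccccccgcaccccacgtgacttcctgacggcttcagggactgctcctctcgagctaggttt

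**Figure D1:**
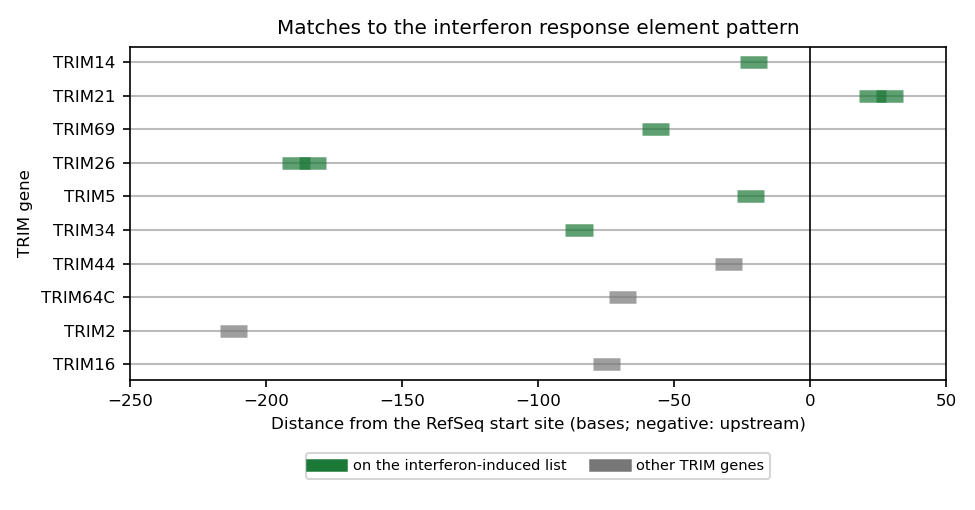
Position of each match to the 10-letter pattern GAAANNGAAA on either strand (blocks) in the promoter windows of the 10 TRIM genes that hold one; the x axis is the distance in bases from the RefSeq start site and each grey line is a window. Matches of TRIM14 and TRIM5 begin within 30 bases upstream of the start, and the 2 of TRIM21 lie after it.

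Setting miRs against control addresses how the levels of TRIM transcripts stand once microRNAs have been given to the fibroblasts. TRIM25, a ligase that modifies the RNA sensor RIG-I and also attaches the ubiquitin-like protein ISG15, rose 3.33-fold in mean FPKM. TRIM14, an adaptor of RNA sensing on mitochondria that lacks the RING, and TRIM21, a receptor for antibodies inside the cell, had larger mean differences, but the miRs libraries lay over 2-fold apart and neither passed the test. Most other members had smaller mean differences: of 40 tested members, 35 had a log2 difference between −0.73 (TRIM3) and 0.57 (TRIM5). A small mean can stand for miRs libraries on opposite sides of the control mean. TRIM22 was at 1.36 in replicate 1 and −0.46 in replicate 2, and TRIM16L at −1.28 and 0.70. The median over the tested members was −0.06, beside −0.00201 over all 11860 tested genes.

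Of the 72 members, 21 were listed at 0 in all 4 libraries, 11 had some signal under a mean of 1 FPKM, and 40 reached that mean and were tested with limma on log2(FPKM + 1). The silent members were TRIM10, TRIM15, TRIM29, TRIM40, TRIM42, TRIM43, TRIM43B, TRIM48, TRIM49, TRIM49B, TRIM49C, TRIM50, TRIM51, TRIM60, TRIM63, TRIM64, TRIM64B, TRIM64C, TRIM71, TRIM72 and TRIM77. They include the muscle proteins TRIM63 (MuRF1) and TRIM72 (MG53), the stem cell protein TRIM71 (LIN41), and TRIM43, TRIM49 and TRIM64 with their close copies. As the minimum applies to the mean of control and miRs together, a gene that is high in 1 group reaches it more easily.

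One member, TRIM25, passed an adjusted p of 0.05 in limma, which is 2.5% of the tested members, against 0.245% of all tested genes (29) in either direction and 0.101% (12) for higher in miRs. No member was called lower, where 0.143% of all tested genes (17) were. At an unadjusted p under 0.05 there were 6 members, or 15.0%, fewer than the 24.2% of all tested genes. Both miRs libraries lay above both controls in 12 members, a share of 30.0% beside 29.5% of all tested genes. Both lay below in 8 members, 20.0% beside 30.0% of all tested genes. The shares of members on 1 side of the controls are thus near the background or under it.

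**Figure D2:**
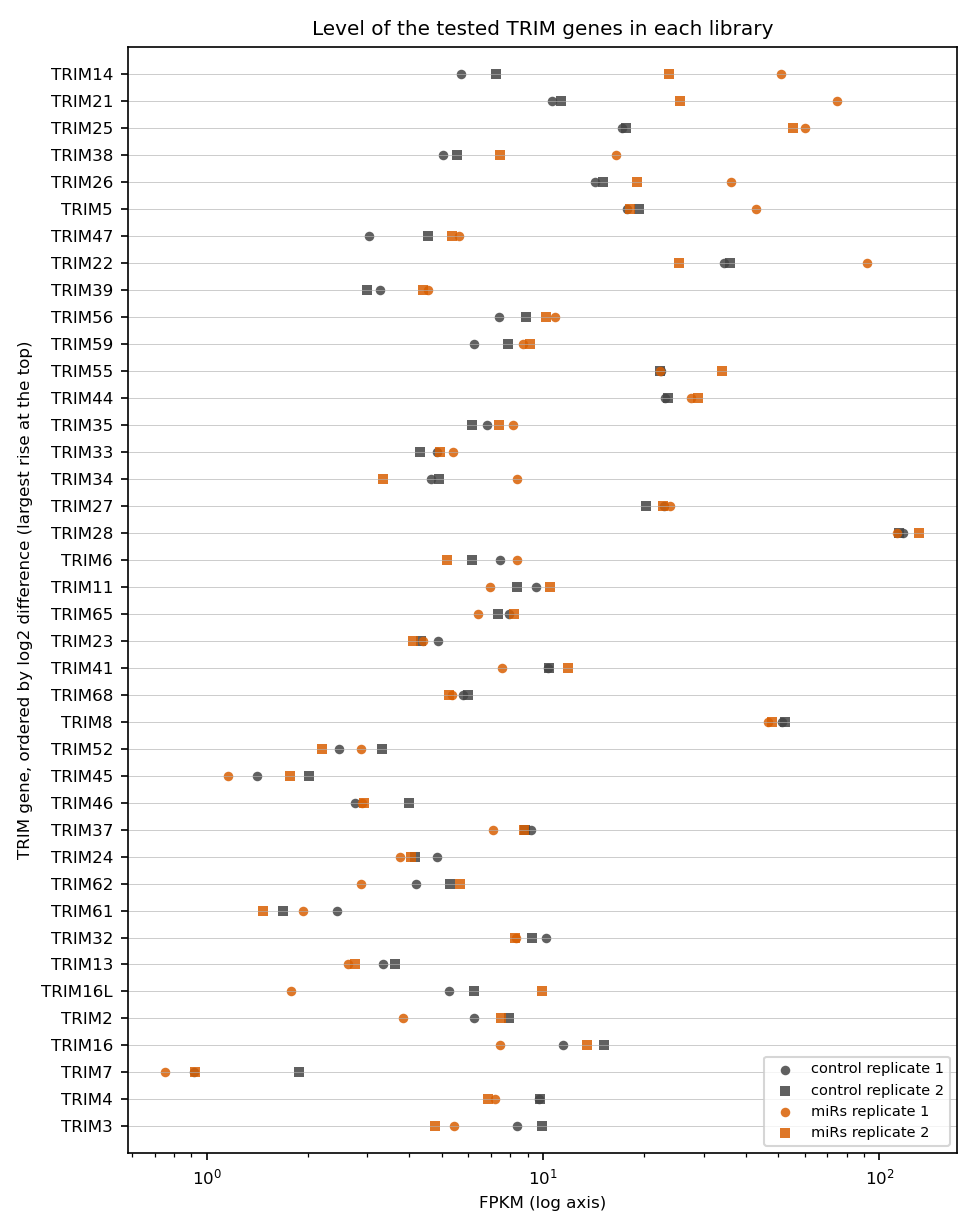
Level in FPKM (log axis) of the 40 tested TRIM genes in each of the 4 libraries, ordered by the log2 difference of miRs minus control. The miRs points of TRIM25 lie close together and right of the controls, while those of TRIM14, TRIM21, TRIM38, TRIM5, TRIM22 and TRIM34 lie over 2-fold apart.

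TRIM25 (chromosome 17) was at 17.1 FPKM in control replicate 1, 17.6 FPKM in control replicate 2, 60.2 FPKM in miRs replicate 1 and 55.4 FPKM in miRs replicate 2. The groups do not overlap, and replicates of each group lay close together. The control mean was 17.4 ± 0.325 FPKM and the miRs mean 57.8 ± 3.45 FPKM (SD, n = 2 each), a difference of 1.68 ± 0.12 in log2 (SE; adjusted p = 0.0430 in limma). The call was kept in 7 of 11 alternatives, over all of which the log2 difference stayed between 1.62 and 1.74. Among the 7 are the fits without miRs replicate 1 and without miRs replicate 2, where the single miRs library is taken to vary as the controls do. In the rest of the 7 the adjusted p in limma was close to the threshold, from 0.0372 (minimum of 5 FPKM) to 0.0487 (rescaling by quantiles). The call was lost in limma with no minimum FPKM (adjusted p = 0.114) and with no variance trend (0.0526). It was also lost without control replicate 1 and without control replicate 2.

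TRIM14 and TRIM21 had larger differences than TRIM25, and their miRs libraries exceeded both controls by a wide but unequal margin. TRIM14 (chromosome 9) was at 5.70 and 7.26 FPKM in the controls, 50.9 FPKM in miRs replicate 1 and 23.7 FPKM in miRs replicate 2. Its log2 difference was 2.27 ± 0.39 (SE; adjusted p = 0.0846 in limma), with a mean 5.75-fold that of control. TRIM21 (chromosome 11) was at 10.6 and 11.3 FPKM in the controls, compared with 74.9 and 25.5 FPKM in miRs, a log2 difference of 1.91 ± 0.52 (adjusted p = 0.134). In both genes miRs replicate 1 was the highest library, 2.15 times replicate 2 for TRIM14 and 2.94 times for TRIM21. Without miRs replicate 1 the log2 difference was 1.73 for TRIM14 and 1.15 for TRIM21, and without replicate 2 it was 2.80 and 2.67. In such fits the single miRs library is taken to vary as the controls do.

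TRIM38 and TRIM26, both on chromosome 6 and both regulators of innate signalling, followed. TRIM38 was at 5.04 and 5.53 FPKM in the controls, compared with 16.5 and 7.47 FPKM in miRs (a difference of 0.95 ± 0.37 in log2, adjusted p = 0.212 in limma). TRIM26 was at 14.2 and 15.1 FPKM in the controls, compared with 36.3 and 19.0 FPKM in miRs (0.80 ± 0.32, adjusted p = 0.221). Neither overlapped between groups, and in each the lower miRs library was under 1.5 times the control mean. TRIM56, an antiviral ligase of chromosome 7, was at 7.41 and 8.87 against 10.8 and 10.2 FPKM (0.34 ± 0.15, adjusted p = 0.246), and here the miRs libraries were close together.

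TRIM22 and TRIM34 were split between the miRs libraries, and TRIM5 was above the controls in miRs replicate 1 only. TRIM22, a ligase known to restrain transcription of HIV, was at 34.5 and 36.0 FPKM in control, at 91.9 FPKM in miRs replicate 1 and at 25.3 FPKM in miRs replicate 2. One miRs library was thus above both controls and the other below both, with a log2 difference of 1.36 in replicate 1 and −0.46 in replicate 2 from the control mean. TRIM5, which recognises retroviral capsids, was at 17.8 and 19.3 FPKM in the controls, compared with 43.1 and 18.1 FPKM in miRs. TRIM34, its close relative, was at 4.65 and 4.89 FPKM in the controls, compared with 8.39 and 3.34 FPKM in miRs. None of these passed in limma with all libraries (adjusted p = 0.681 for TRIM22, 0.446 for TRIM5 and 0.842 for TRIM34). Their direction turns when miRs replicate 1 is left out, to a log2 difference of −0.46 for TRIM22 and −0.41 for TRIM34. For TRIM5 it was then −0.035, close to no change.

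TRIM5, TRIM6, TRIM34 and TRIM22 are neighbours on chromosome 11 in RefSeq. In all 4 of them miRs replicate 1 was above both controls, and in 3 of them (TRIM6, TRIM34 and TRIM22) replicate 2 was below both. TRIM6, a ligase of interferon signalling, was at 7.46 and 6.15 FPKM in the controls, compared with 8.37 and 5.18 FPKM in miRs. The gene group was picked after its values were seen, and these 3 were the only tested members with that split (7.5%), beside 8.48% of all tested genes. In RefSeq TRIM5 runs across TRIM6 and TRIM34 on the opposite strand, and the strand setting of the counting is not given, so these levels are uncertain. The readthrough TRIM6-TRIM34 was at 0.00742 FPKM in control replicate 1, at 1.25 FPKM in miRs replicate 2 and at a listed 0 elsewhere.

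TRIM69, on the same interferon-induced list, stayed under the minimum with a mean of 0.698 FPKM. It was at 0.208 and 0.101 FPKM in the controls, compared with 2.09 and 0.396 FPKM in miRs. Both miRs libraries were above both controls, at levels too low for a test here.

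Over the 10 listed genes, 9 were tested, all 9 with a positive log2 difference (5902 of the 11860 tested genes had one) and 6 higher with no overlap, beside 29.5% of all tested genes. Their median was 0.80, made up of 1.36 in miRs replicate 1 and 0.36 in replicate 2 relative to the control mean, and TRIM22, TRIM5 and TRIM34 were negative without replicate 1. The list was assembled from known interferon-induced TRIM genes with results of these data in view, so its direction is no independent evidence. Its summed level was 117 and 126 FPKM in control, 395 FPKM in miRs replicate 1 and 188 FPKM in miRs replicate 2. The 31 other tested members had a median log2 difference of −0.13, with 6 higher and 8 lower without overlap (29.5% and 30.0% of all tested genes), and their highest log2 difference was 0.46. Relative to the control mean that median was −0.15 in miRs replicate 1 and 0.039 in replicate 2, so its direction differs between them. Their summed level was 393 and 398 FPKM in the controls, compared with 367 and 426 FPKM in miRs, so that miRs lay on both sides of control.

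**Figure D3:**
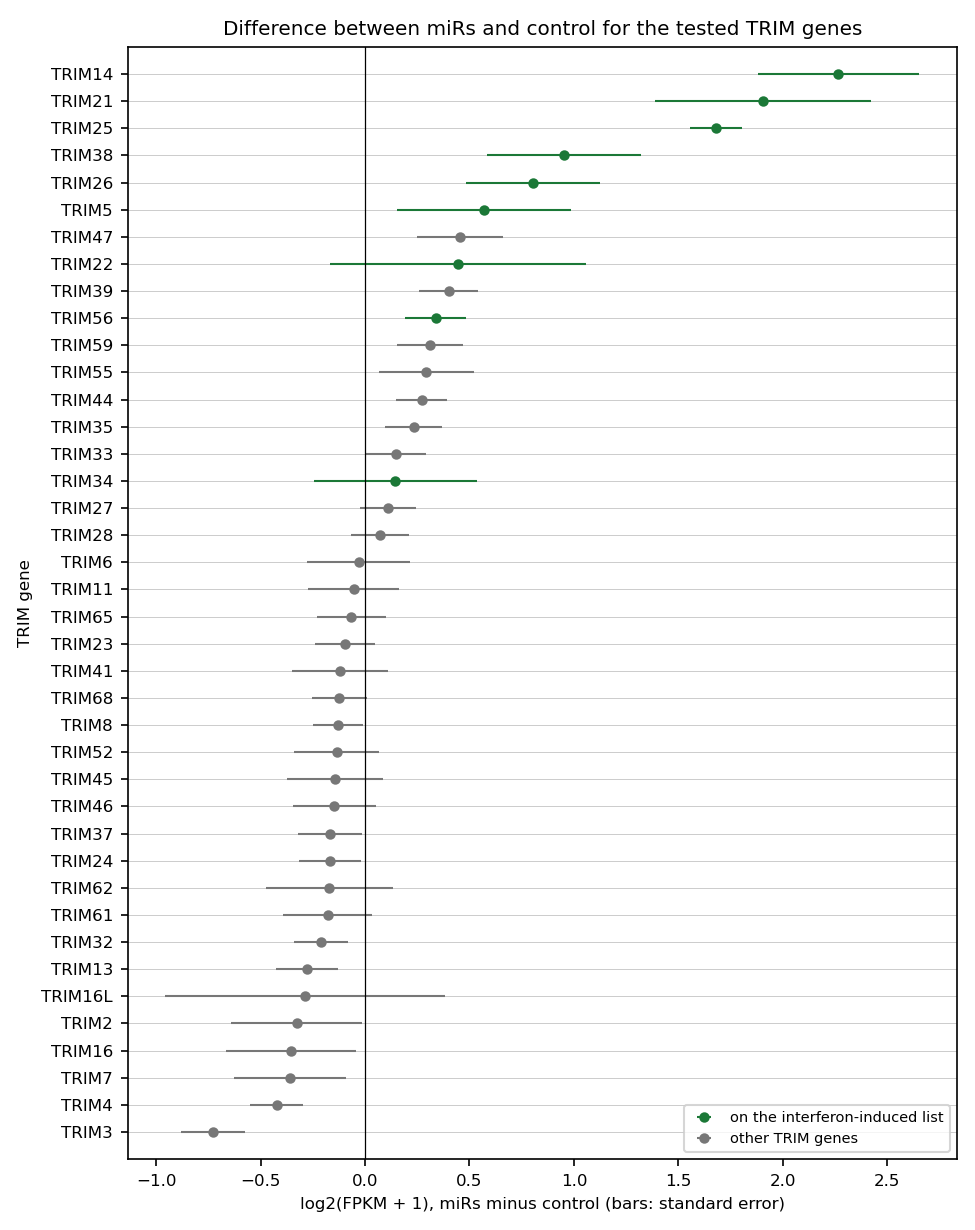
Log2 difference of miRs minus control on the log2(FPKM + 1) scale with its standard error (bars) for the 40 tested TRIM genes; green marks genes on the interferon-induced list. TRIM14, TRIM21 and TRIM25 stand at 2.27, 1.91 and 1.68, and the bars of TRIM22 and TRIM34 cross 0.

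Within the family, most of the wide gaps between the miRs libraries were in listed genes. Of the 40 tested members 7 lay over 2-fold apart between the miRs replicates (9.4% of all tested genes did), and 6 of the 7 were on the list and higher in replicate 1: TRIM14, TRIM21, TRIM22, TRIM34, TRIM38 and TRIM5. The median gap, miRs replicate 1 minus replicate 2, was 1.07 on the log2 scale over the 9 listed genes and −0.05 over the 31 others, beside 0.00991 over all tested genes. Between the controls the median gap of the listed genes was −0.09. TRIM25 and TRIM56 were the listed genes with the smallest ratio of replicate 1 to replicate 2, 1.09 and 1.06. Beside these values, 24 interferon response genes that are not TRIM members, such as MX1 and ISG15, had a median log2 difference from the control mean of 6.44 in miRs replicate 1 and 3.72 in replicate 2, and a median gap of 2.34. The part of this unequal response in the TRIM values was not tested.

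**Figure D4:**
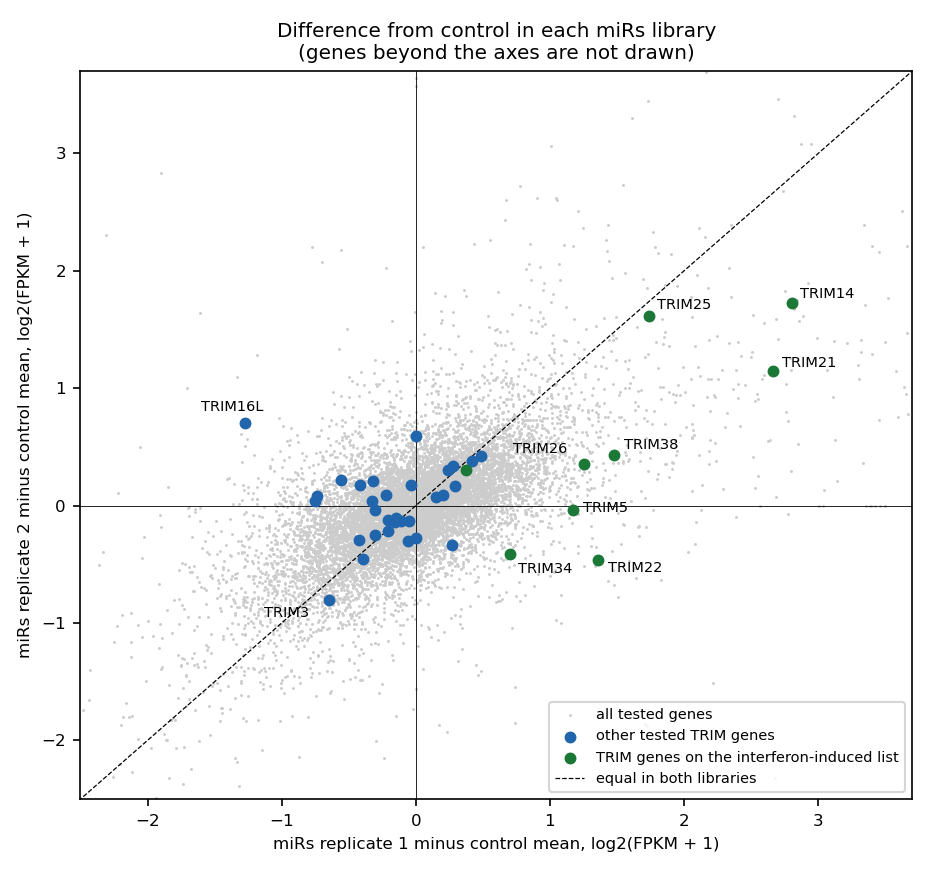
Log2 difference from the control mean on the log2(FPKM + 1) scale in miRs replicate 1 (x axis) and miRs replicate 2 (y axis) for all tested genes (grey), tested TRIM genes on the interferon-induced list (green) and other tested TRIM genes (blue); the dashed line marks equal values. TRIM25 lies near the line at 1.74 and 1.62, while TRIM22 is at 1.36 and −0.46.

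The seventh gene over 2-fold apart was TRIM16L, on chromosome 17, a shortened copy of TRIM16, and it went the other way. It was at 5.26 and 6.25 FPKM in the controls, compared with 1.78 and 9.94 FPKM in miRs replicates 1 and 2. Its mean FPKM was 1.02 times that of control while its log2 difference was −0.29 ± 0.67 (SE; adjusted p = 0.817 in limma), so the sign depends on the scale. It also depends on the library: the log2 difference of TRIM16L was 0.70 without miRs replicate 1 and −1.28 without replicate 2. TRIM16, a protein of the response to damaged lysosomes, was at 11.4 and 15.1 FPKM in the controls, compared with 7.44 and 13.6 FPKM in miRs (−0.36 ± 0.31, adjusted p = 0.519). Since these copies are nearly alike in sequence, the split of fragments between them is uncertain.

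Among tested members, TRIM3 and TRIM4 had the most negative differences on the log2(FPKM + 1) scale; with a pseudocount of 0.1 the low gene TRIM7 (−0.61) came before TRIM4 (−0.47). TRIM3 (chromosome 11), a ligase with NHL repeats studied as a growth suppressor in brain, was at 8.36 and 9.92 FPKM in the controls, compared with 5.45 and 4.78 FPKM in miRs. The groups do not overlap, with a log2 difference of −0.73 ± 0.15 (SE; adjusted p = 0.0975 in limma). Leaving out miRs replicate 2 gave TRIM3 a log2 difference of −0.65, and leaving out replicate 1 gave −0.81. The single miRs library of such a fit is taken to vary as the controls do, so neither fit decides the call. TRIM4 (chromosome 7) was at 9.74 and 9.77 FPKM in the controls, compared with 7.20 and 6.84 FPKM in miRs (−0.42 ± 0.12, adjusted p = 0.147). The controls of TRIM4 were nearly equal, and both miRs libraries lay below them.

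TRIM2 and TRIM32, which like TRIM3 carry NHL repeats at the C terminus, also had lower means. TRIM2, a ligase for neurofilament light chain, was at 6.24 and 7.93 FPKM in the controls, compared with 3.82 and 7.51 FPKM in miRs, so the groups overlap (−0.33 ± 0.31, adjusted p = 0.558 in limma). TRIM32, mutated in a limb-girdle muscular dystrophy, was at 10.2 and 9.28 FPKM against 8.32 and 8.23 FPKM (−0.21 ± 0.13, adjusted p = 0.371) with no overlap. All 3 measurable genes of this class had a negative difference, as did 22 of the 31 tested members off the interferon-induced list, and the fourth, TRIM71, was silent. None of the 3 passed with all libraries, and the log2 difference of TRIM2 was 0.082 without miRs replicate 1 and −0.74 without replicate 2.

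The rest of the largest negative differences were small or rested on low or scattered values. TRIM7 was at 0.920 and 1.88 FPKM in the controls, compared with 0.753 and 0.921 FPKM in miRs, with the libraries overlapping. TRIM13, a ligase anchored in the endoplasmic reticulum, was at 3.34 and 3.64 against 2.63 and 2.76 FPKM with no overlap (−0.28 ± 0.15, adjusted p = 0.321 in limma). TRIM61 was at 2.44 and 1.69 against 1.93 and 1.47 FPKM, and TRIM62 at 4.20 and 5.29 against 2.88 and 5.65 FPKM. Both overlapped between the groups.

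On the positive side outside the interferon-linked genes, TRIM47 and TRIM39 had no overlap between groups. TRIM47 was at 3.03 and 4.56 FPKM in the controls, compared with 5.62 and 5.36 FPKM in miRs (a difference of 0.46 ± 0.20 in log2, adjusted p = 0.260 in limma), and its difference was 0.22 without control replicate 1 and 0.69 without control replicate 2. TRIM39, a ligase of chromosome 6, was at 3.28 and 3.01 against 4.55 and 4.38 FPKM (0.40 ± 0.14, adjusted p = 0.191). The readthrough TRIM39-RPP21, listed apart, was between 0.156 and 1.68 FPKM, which makes the level of TRIM39 uncertain.

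The most abundant members, TRIM28 and TRIM8, differed little between the groups. TRIM28, the corepressor that silences retroelements with KRAB zinc finger proteins, was the highest at 118 and 114 FPKM in the controls, compared with 113 and 131 FPKM in miRs (a difference of 0.07 ± 0.14 in log2, adjusted p = 0.780 in limma). TRIM8, a regulator of inflammatory and p53 signalling, was second at 51.3 and 52.5 against 46.7 and 48.1 FPKM (−0.13 ± 0.12, adjusted p = 0.539), with no overlap but a small step. TRIM22, TRIM25 and TRIM21 were next by mean over all 4 libraries, at ranks 3 to 5. Of these 3, TRIM22 was the highest in both controls and in miRs replicate 1, and TRIM25 in miRs replicate 2. These ranks pool the groups: by control mean TRIM44, TRIM55, TRIM27 and TRIM5 were above TRIM25, and TRIM26 and TRIM16 were also above TRIM21.

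Each member was put in 1 class by its domains. Members without a RING, such as TRIM14, and those with a COS box were classed apart, with or without a SPRY domain. The class named for the SPRY domain, which binds protein partners, held 38 of the other members, and 19 of them were tested. Of these 11 had a higher and 8 a lower mean log2 level in miRs, with 7 and 2 showing no overlap (29.5% and 30.0% of all tested genes), and TRIM25 was the 1 call (0.245% of all tested genes). The chromatin readers with PHD and bromodomain, TRIM24, TRIM28 and TRIM33, had log2 differences between −0.17 and 0.15. TRIM66, of the same class, stayed under the minimum with values between 0.672 and 0.882 FPKM. The 8 members with a COS microtubule-binding box held 2 tested genes, TRIM46 and TRIM55, and the other 6 were under 0.3 FPKM in every library. The muscle protein TRIM55 was at 22.4 and 22.3 FPKM in the controls, compared with 22.3 and 34.1 FPKM in miRs, a value set apart in 1 library. TRIM58, an erythroid ligase, was among the highest of the untested genes, at 0.630 and 1.57 FPKM in the controls, compared with 0.328 and 0.783 FPKM in miRs.

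The 12 remaining tested members (TRIM11, TRIM23, TRIM27, TRIM35, TRIM37, TRIM41, TRIM45, TRIM46, TRIM52, TRIM59, TRIM65 and TRIM68) had log2 differences from −0.17 to 0.31 at levels between 1.16 and 23.9 FPKM, and adjusted p-values from 0.303 to 0.894 in limma. Of these, TRIM35 and TRIM59 were higher and TRIM37 and TRIM68 lower without overlap, beside 29.5% and 30.0% of all tested genes. The 8 remaining members under the minimum (TRIM9, TRIM17, TRIM31, TRIM36, TRIM54, TRIM67, TRIM73 and TRIM74) reached at most 0.842 FPKM in any library. TRIM9, TRIM36 and TRIM54 lay higher in miRs without overlap, but at no more than 0.292 FPKM. No share over other genes under the minimum was set beside them. TRIM73 and TRIM74 are near-identical copies, and TRIM52 has an antisense partner, so their levels are uncertain.

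Set beside the values, the promoter pattern was present in 8 of the 28 tested members with an entry. These had a median log2 difference of 0.42, against −0.11 for the 20 without a match. Over all tested genes the medians were 0.14 with a match (364 genes) and −0.00349 without. The 8 include TRIM2 and TRIM16, which had negative differences, and TRIM44, a member without a RING at 23.0 and 23.5 FPKM in the controls, compared with 27.5 and 28.9 FPKM in miRs. The others, TRIM14, TRIM21, TRIM26, TRIM5 and TRIM34, are all on the interferon-induced list. That list was assembled with results of these data in view, so the higher median is no separate evidence of a link between pattern and level. TRIM25, TRIM38 and TRIM56, the listed members with an entry and no match, all had positive differences. Members off the list such as TRIM39 and TRIM47 also had positive differences with no match, though the median of the 20 was negative.

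Of the 4 family genes that carry other symbols, 3 were tested. PML (TRIM19), which builds nuclear bodies, was at 16.0 and 16.7 FPKM in the controls, compared with 64.8 and 32.5 FPKM in miRs (a difference of 1.44 ± 0.34 in log2, adjusted p = 0.110 in limma). MID2 (TRIM1), a microtubule-bound ligase, was at 0.731 and 0.868 against 1.96 and 1.52 FPKM (0.60, adjusted p = 0.167), and MID1 (TRIM18) overlapped between groups at 8.26 and 10.2 against 7.91 and 9.60 FPKM. MEFV (TRIM20), a sensor of white blood cells, stayed at or under 0.0523 FPKM. PML again had its highest value in miRs replicate 1.

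TRIM25 works with the RNA sensor RIG-I, encoded by DDX58, and with the antiviral zinc finger protein ZC3HAV1. In a list of 15 genes of this pathway, 14 were tested, 0 passed over all genes in limma, 5 had an unadjusted p under 0.05, and 8 lay higher and 1 lower without overlap. Of all tested genes 24.2% had such a p, 29.5% lay higher and 30.0% lower. DDX58 was at 3.21 and 3.16 FPKM in the controls, compared with 135 and 25.7 FPKM in miRs (a difference of 3.85 in log2, adjusted p = 0.0940). IFIH1, a second RNA sensor, was at 0.483 and 0.584 against 86.5 and 12.5 FPKM (4.49, adjusted p = 0.0932). The transcription factor IRF7 was at 1.25 and 2.75 against 59.4 and 31.9 FPKM (3.94, adjusted p = 0.0632), and the sensor-like helicase DHX58 at 1.05 and 1.64 against 20.7 and 5.09 FPKM (2.30, adjusted p = 0.135). RNF135, another ligase for RIG-I, was at 6.69 and 6.46 against 8.87 and 7.77 FPKM, and the adaptor MAVS overlapped at 14.4 and 15.9 against 11.8 and 21.1 FPKM; both were named after their values were seen. Between the miRs libraries DDX58 was 5.28-fold and IFIH1 6.94-fold higher in replicate 1, beside 1.09-fold for TRIM25.

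Ligases receive ubiquitin from an E1 enzyme through an E2 enzyme. In a list of 16 such genes, all tested, 0 passed over all genes in limma, 5 had an unadjusted p under 0.05, and 7 lay higher and 3 lower without overlap, beside the same 24.2%, 29.5% and 30.0% of all tested genes. UBE2L6 and UBA7, which pass on ISG15, were at 32.7 and 40.7 against 373 and 98.5 FPKM (a difference of 2.36 in log2, adjusted p = 0.136) and at 7.63 and 11.2 against 53.4 and 20.1 FPKM (1.72, adjusted p = 0.143). UBE2E3 was at 71.1 and 64.0 against 114 and 92.6 FPKM (0.60, adjusted p = 0.131), and UBE2D4 was lower in miRs at 2.78 and 2.17 against 1.52 and 1.003 FPKM (−0.62, adjusted p = 0.181). The median over the list was 0.17, beside −0.00201 over all tested genes.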

How the data were processed

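RNA was extracted with the RNeasy kit and sequencing libraries prepared with the TruSeq Stranded mRNA kit, per the labels' protocols. Per the file headers, the deposited values are FPKM, with 1 value for each gene symbol in each library. Among the tools in the submitters' processing notes are Cuffdiff 2.2.1 and TopHat2 2.1.1, beside the build hg19. Annotation, strand setting and scaling between libraries are not given there. Read totals are unknown. Ratios of values under 0.3 FPKM put the worth of 1 fragment, relative to control replicate 1, at 1.05 in control replicate 2, 0.896 in miRs replicate 1 and 1.02 in miRs replicate 2.

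Samples were grouped by the treatment label and numbered by their titles. The 11860 genes that averaged 1 FPKM or more were fitted in limma 3.58.1 (R 4.3.3) after adding 1 and taking log2, with a variance trend and 2 residual degrees of freedom. P-values are 2-sided with Benjamini-Hochberg adjustment over all these genes, and the threshold is 0.05. The test was checked on simulated data in which both groups had the same spread. In the real data the correlation between replicates was 0.985 in control and 0.949 in miRs, a difference that the check does not cover. Differences in log2 understate those of low genes. Members and lists were chosen with earlier results of these data known. The text names members past the threshold, the 10 largest differences each way, TRIM25, TRIM22, the interferon-induced list, the 5 highest members, the 3 highest under the minimum, and up to 4 genes of each further list by p. TRIM6, TRIM24, TRIM33, TRIM44, TRIM55 and the members summarised as remaining were added after their values were seen. Start-site sequences came from RefSeq (GRCh38.p14, another build than hg19), matched by symbol in Python 3.11.15; a second pattern searched in them is not reported here. The alternatives changed the pseudocount to 0.1, dropped the minimum or raised it to 5 FPKM, rescaled the libraries by median of ratios or by quantiles, left out the variance trend, added a replicate block, or left out each library in turn.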

Additional observations from a re-analysis of the deposited data

How the results depend on the processing

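The count of genes past the threshold (29) was 0 with no minimum FPKM in limma, where 3338 genes had an unadjusted p under 0.05, and 0 to 3906 when 1 library was left out. The count of TRIM members (1) was 0 with no minimum FPKM and 0 with no variance trend, with 7 and 6 members at an unadjusted p under 0.05, and ran from 0 to 12 with a library left out. Their median log2 difference was 0.091 with a minimum of 5 FPKM and −0.045 to 0.079 with a library left out. Members higher without overlap then numbered 14 to 19 and members lower 10 to 18, as fewer libraries overlap less. Neither these counts nor the members past the threshold with a library left out were set beside a share over all tested genes. A group of 1 library is there taken to vary as the other group does, so no conclusion was drawn from these calls. With replicate number as a replicate block, 99 genes passed, and TRIM25 remained the only member called. Same-numbered libraries had a correlation of 0.201 in their deviations, over 2 pairs, and the labels say nothing of a shared origin. Of 246 values of 23 named members under the alternatives, 220 kept direction and side of the threshold. The log2 difference ran, with 1 library left out, from −0.75 to 0.038 for TRIM16, −1.28 to 0.70 for TRIM16L, −0.74 to 0.082 for TRIM2, −0.46 to 1.36 for TRIM22, −0.41 to 0.70 for TRIM34, −0.035 to 1.17 for TRIM5, −0.56 to 0.22 for TRIM62 and −0.037 to 0.18 for TRIM28. The turn came without miRs replicate 1, and for TRIM28 without miRs replicate 2. The cause of the changes with the minimum, the trend and the libraries was not tested. Read totals are unknown, so the size of difference that the depth allows was not measured.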
